A study of Mus musculus with 30 samples.

Results

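The cadherin genes described here are 39 members of the cadherin superfamily: the classical and related cadherins, the non-clustered protocadherins, and the large flamingo, Fat and Dachsous cadherins. Members were taken as every region of open chromatin (a peak) that overlapped the RefSeq body of a member, extended by 10 kb on both sides on GRCm38. This gave 834 of 257149 peaks, at 38 of the 39 genes, and Cdh19 had no peak. All 834 passed the filter on low counts. Pcdh15 (35 peaks) and Cdh12 (24 peaks) were set against the other members (775 peaks). They were selected on their measured log2 change under acute restraint, so acute values are a description: where a peak or gene is said to be called in that comparison, the call only states which side of a threshold it fell on, and no p is given.

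The assay was ATAC-seq (a transposase inserts sequencing tags where DNA is open), run on nuclei of 1 ventral hippocampus from each of 30 mice. The series is about habituation to stress, and crosses a restraint history with a final acute session. Handled mice were lifted by the tail, as before restraint, and then either stayed in the home cage (0 min, 8 mice, 4 of each sex) or were collected 45 min after a restraint session began (7 mice, 3 females and 4 males). Chronically restrained mice had been placed in a ventilated tube for 90 min daily on 10 days, and were likewise collected at 0 min (8 mice, 4 of each sex) or at 45 min of a further session (7 mice, 4 females and 3 males). All groups were housed singly for 24 h beforehand and kept on a reversed light cycle, and the libraries fell into 4 batches. The labels used here name no strain, age, mutant allele or drug. Libraries held 26104576 to 55294838 counts in peaks, and the median peak of the table had a mean of 58.97 counts per library.

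Cadherins are calcium-dependent adhesion proteins whose outer repeats bind partners on the facing cell. The tails of classical type I and type II cadherins bind beta-catenin and p120-catenin, and alpha-catenin couples that complex to actin, while protocadherins lack the catenin-binding tail and bind more weakly. In the hippocampus, N-cadherin sits at synapses in general, and type II cadherins such as Cdh8 and Cdh9 mark particular circuits. Pcdh15 is best known from the inner ear, where it forms the tip link of hair cells together with Cdh23. Flamingo proteins (Celsr1 to Celsr3) and the Fat and Dachsous cadherins act in planar polarity, the alignment of cells and axons within a sheet.

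The promoters of 5 members are shown because they span the range of accessibility in the family and include the genes the results turn on. Each is the 250 bases before a RefSeq start (GRCm38), written 5′ to 3′ on the gene's own strand, with CpG dinucleotides in capitals.
Pcdh15 promoter, chr10:73821617-73821866 (+ strand): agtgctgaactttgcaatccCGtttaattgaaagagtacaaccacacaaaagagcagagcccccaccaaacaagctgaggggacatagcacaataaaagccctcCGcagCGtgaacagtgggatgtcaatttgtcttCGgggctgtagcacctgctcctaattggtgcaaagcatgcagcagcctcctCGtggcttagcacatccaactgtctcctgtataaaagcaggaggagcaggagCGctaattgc
Cdh12 promoter, chr15:21111202-21111451 (+ strand): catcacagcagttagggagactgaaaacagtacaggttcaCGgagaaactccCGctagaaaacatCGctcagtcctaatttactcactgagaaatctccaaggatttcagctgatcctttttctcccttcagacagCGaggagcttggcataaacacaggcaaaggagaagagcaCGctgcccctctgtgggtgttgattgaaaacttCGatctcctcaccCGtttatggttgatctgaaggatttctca
Cdh10 promoter, chr15:18820079-18820328 (+ strand): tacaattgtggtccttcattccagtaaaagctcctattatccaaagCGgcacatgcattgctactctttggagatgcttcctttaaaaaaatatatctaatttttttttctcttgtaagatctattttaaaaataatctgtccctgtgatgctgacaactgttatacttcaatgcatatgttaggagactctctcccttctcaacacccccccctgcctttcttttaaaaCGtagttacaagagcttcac
Pcdh9 promoter, chr14:93890670-93890919 (- strand): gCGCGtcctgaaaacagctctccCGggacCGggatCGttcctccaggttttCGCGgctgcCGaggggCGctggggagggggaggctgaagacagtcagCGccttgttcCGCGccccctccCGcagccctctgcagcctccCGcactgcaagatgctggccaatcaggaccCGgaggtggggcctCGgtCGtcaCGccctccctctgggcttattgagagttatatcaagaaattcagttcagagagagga
Celsr3 promoter, chr9:108825795-108826044 (+ strand): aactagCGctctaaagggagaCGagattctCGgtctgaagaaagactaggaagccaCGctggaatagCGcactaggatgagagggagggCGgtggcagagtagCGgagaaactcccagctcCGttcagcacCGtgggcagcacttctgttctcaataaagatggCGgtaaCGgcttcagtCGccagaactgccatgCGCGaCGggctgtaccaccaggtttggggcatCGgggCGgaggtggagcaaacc
The Pcdh15 window held 6 CpG (GC content 50.4%) and the Cdh12 window 7 (46.8%), against a median of 6 over the 32851 promoter windows of the RefSeq table. Cdh10 had 2 CpG and a GC content of 36.8%, whereas Pcdh9 had 18 and Celsr3 had 17. The RefSeq start of Pcdh15 lay 725.6 kb inside the gene body and that of Cdh12 662.6 kb inside it, so both belong to inner transcripts, while the Cdh10 start lay 1.46 kb from the upstream end. Promoter windows were at hand for 25 of the 39 members (28 windows), and 25 of these windows overlapped a peak. The windows of Cdh23, Fat1 and Fat2 did not.

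The peaks over these promoters differed in level per kilobase. Levels are counts relative to the TMM-scaled library total, the usual CPM, and are divided by the peak's length where genes are compared. The Pcdh9 promoter peak had 11.5 ± 1.8 CPM per kb (SD, n = 30) and the Celsr3 promoter peak 7.94 ± 0.62, the highest and the next highest of the 22 members with such a peak. Cdh10 stood at 4.58 ± 0.66, Pcdh15 at 3.08 ± 0.72 and Cdh12 at 2.45 ± 0.41, the last being the lowest of the 22. Across these 22 genes, the number of CpG and the CPM per kb had a Spearman rho of 0.53 and a Pearson r of 0.39, as a description over genes that share the same libraries.

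Short sequence motifs were looked for in the member promoters, and their counts are given beside the share of all promoter windows that hold them. Both strands of the 250 bases were searched for the full palindromic glucocorticoid receptor element, a CRE (TGACGTCA), an AP-1 site (TGANTCA), an E-box (CACGTG), an EGR site (GCGGGGGCG) and a TATA box (TATAAA). The first 3 were in none of the 28 member windows, and in 0.00913%, 1.55% and 6.75% of all windows. The E-box was in 1 (Cdh15) against 6.02% of all, the EGR site in 1 (Pcdh17) against 2.57%, and the TATA box in 2 (Pcdh15 and Pcdh8) against 12.4%. The TATA box of Pcdh15 began 33 bases before the start, and that of Pcdh8 began 30 bases before it. These matches are letters in a window and say nothing on whether a factor is bound.

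At 45 min of restraint, 5 member peaks were called lower than at 0 min and none was called higher. The 5 lay in Pcdh15 (2), Cdh12 (2) and Cdh10 (1), all inside the gene body and none within 1 kb of a gene end. A call is an adjusted p under 0.05 in edgeR's quasi-likelihood test, with both histories averaged and sex and batch in the model. Of all 257143 peaks tested, 0.116% were called in this comparison, 0.0731% higher and 0.0432% lower. At an unadjusted p under 0.05 there were 94 member peaks (11.3%), against 7.17% of all peaks. Since this comparison was in view when the genes were chosen, nothing is read from the difference between those shares and the members'. Leaving out batch 2 ended all 5 calls, females alone gave 0, and males alone gave 3. A bulk library cannot tell fewer cells of a type from less open chromatin per cell.

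**Figure D1:**
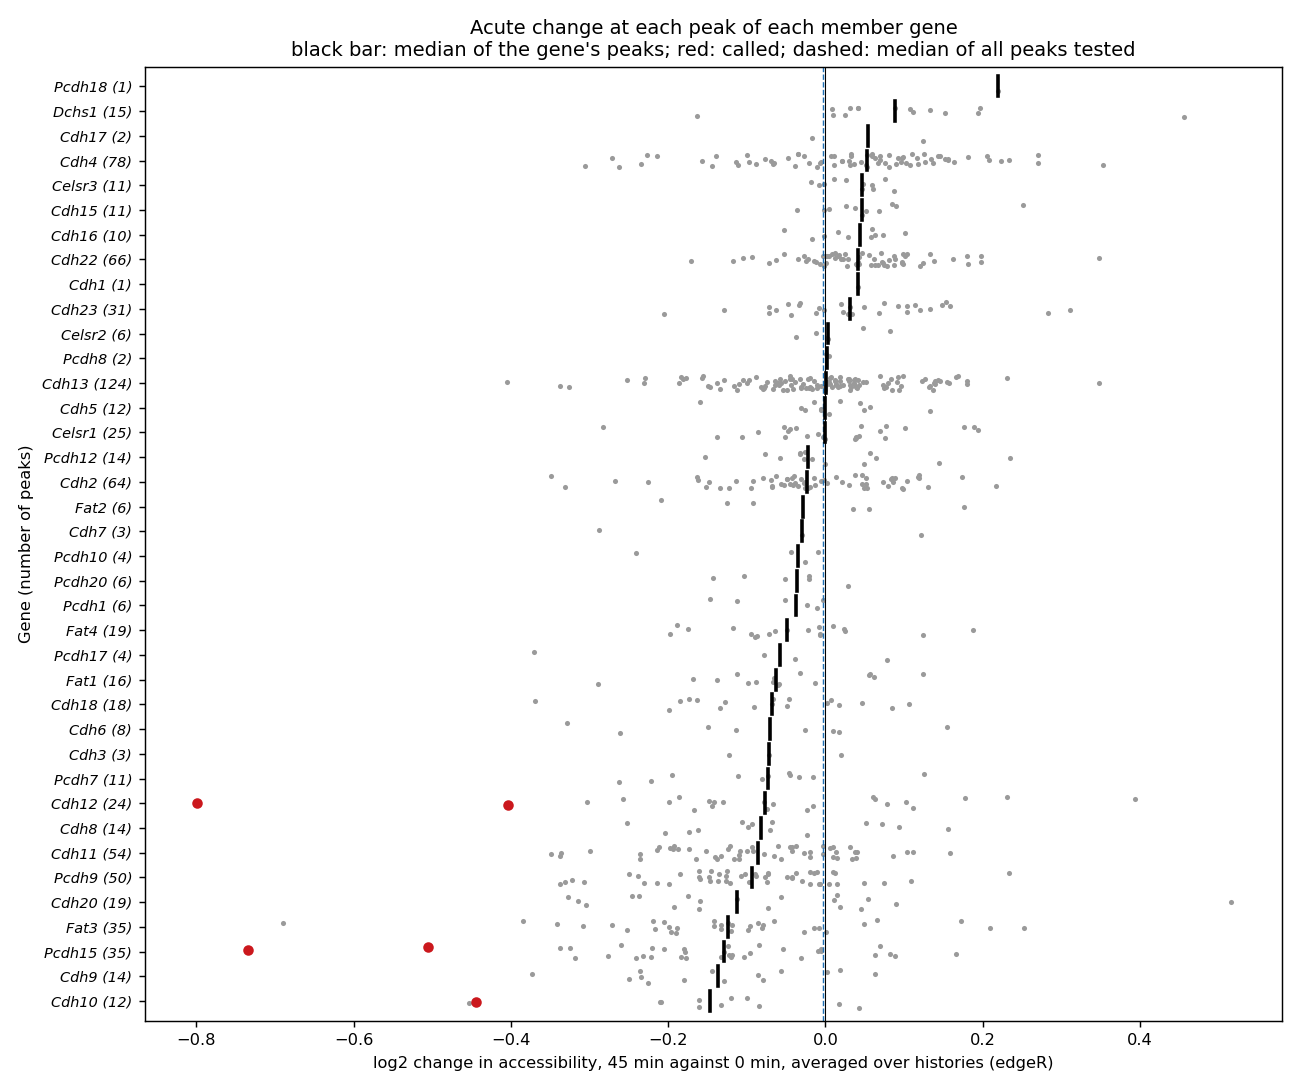
Each point is 1 peak, placed by its log2 change at 45 min against 0 min averaged over histories (x axis), for the 38 members with a peak (y axis, number of peaks in parentheses), ordered by the median (black bar). The 5 called peaks (red) are all at the lower left, in Pcdh15, Cdh12 and Cdh10, and the gene medians run from -0.15 at Cdh10 to 0.22 at the single peak of Pcdh18.

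The Pcdh15 peak with the larger change lay at chr10:74403203-74403534 (GRCm38, 332 bp), 1307 kb into the 1554 kb gene body. In handled mice it had 0.958, 1.41 and 2.25 CPM (lowest, median and highest of 8) at 0 min and 0.697, 0.827 and 1.33 (of 7) at 45 min. In chronically restrained mice the levels were 1.14, 1.39 and 1.52 CPM at 0 min and 0.491, 0.777 and 0.959 at 45 min. The groups did not overlap in chronically restrained mice, where 7 of 7 restrained libraries were below the lowest at 0 min, and in handled mice 5 of 7 were. The log2 change was -0.73 ± 0.12 (SE), at -0.69 ± 0.16 in handled and -0.78 ± 0.17 in chronically restrained mice. Within the 4 batches it was -0.64, -0.80, -0.59 and -0.85. The call was kept in 12 of 14 other settings, and was lost without batch 2 (-0.70) and in females alone (-0.77), both with changes of similar size.

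The other called Pcdh15 peak, chr10:73315749-73316184 (436 bp), lay 219.7 kb into the body. Its level was 0.958, 1.52 and 2.33 CPM in handled mice at 0 min and 0.935, 1.10 and 1.31 at 45 min, and 1.00, 1.32 and 2.12 against 0.376, 0.964 and 1.08 after chronic restraint. All 14 restrained libraries were below the median of their own controls, but the groups overlapped in both histories, with 1 of 7 handled and 5 of 7 chronically restrained libraries below the lowest control. The log2 change was -0.51 ± 0.11, and within batches -0.42, -0.27, -0.71 and -0.55. This call was lost when any of the 4 batches was left out and in each sex alone, with changes between -0.61 and -0.35 over the 14 settings. One library (animal 56) had the 0.376 CPM, apart from 0.884 to 1.08 in the other chronically restrained mice at 45 min.

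Cdh12 encodes a type II cadherin of the brain, and its better covered called peak lay at chr15:21405255-21406127 (873 bp), 956.8 kb into a body of 1150 kb. The level was 2.09, 2.69 and 3.16 CPM in handled mice at 0 min and 1.33, 1.92 and 2.39 at 45 min. After chronic restraint it was 2.02, 2.71 and 3.21 CPM at 0 min and 1.73, 1.99 and 2.86 at 45 min. In handled mice 6 of 7 restrained libraries lay below every control, and in chronically restrained mice 4 of 7 did. The log2 change was -0.40 ± 0.08, with -0.25, -0.32, -0.45 and -0.64 in the 4 batches. The call was lost without batch 2, 3 or 4 and in females alone, with changes from -0.56 to -0.23 over the settings.

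The remaining Cdh12 call was a short peak of low coverage, chr15:20462267-20462384 (118 bp), 13.45 kb into the body, with a mean of 15.5 counts per library. Levels were 0.286, 0.496 and 0.743 CPM against 0.220, 0.268 and 0.433 in handled mice, and 0.261, 0.504 and 0.681 against 0.0689, 0.312 and 0.341 after chronic restraint. All 14 restrained libraries were below the median of their controls, and 4 of 7 and 2 of 7 were below the lowest control. Its change of -0.80 ± 0.17 was the lowest of all 257143 peaks tested, and it was kept as a call in 8 of 14 settings, being lost without each batch and in each sex. Within batches the change was -0.56, -0.49, -0.62 and -1.35, the last from a batch with 1 library per history at 45 min.

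Cdh10, another type II cadherin of the brain, had its call at chr15:18925539-18925988 (450 bp), 106.9 kb into a body of 197.3 kb. Handled mice had 1.69, 1.95 and 3.25 CPM at 0 min and 1.18, 1.48 and 2.04 at 45 min, and chronically restrained mice 1.34, 1.71 and 2.63 against 0.988, 1.18 and 1.89. The groups overlapped in both histories, with 6 of 7 and 4 of 7 restrained libraries below the lowest control. The log2 change was -0.44 ± 0.10, with -0.64, -0.27, -0.26 and -0.63 by batch, and the call was lost without each batch and in each sex alone. No other gene of the annotation overlapped any of the 5 called peaks.

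**Figure D2:**
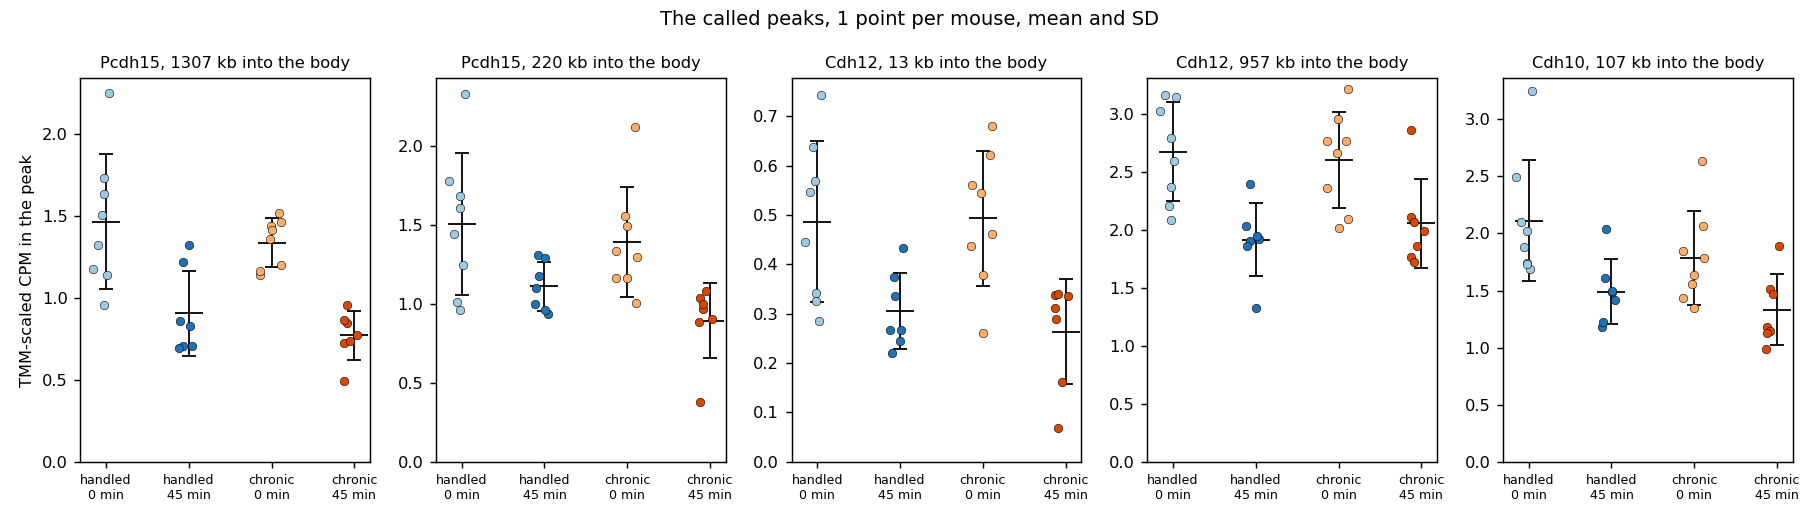
TMM-scaled CPM (y axis, from 0) of the 5 called peaks in each of the 30 mice, by group (x axis), with the mean and SD in black. In the first panel the 7 chronically restrained mice at 45 min (0.491 to 0.959 CPM) lie below all 8 at 0 min (1.14 to 1.52); in the other panels the 45 min points are lower on average and overlap the controls.

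The threshold passed between similar values. Just inside it, the Pcdh15 peak at 219.7 kb had -0.51 ± 0.11 and the Cdh10 peak -0.44 ± 0.10. Just outside were a Fat3 peak (chr9:16282429-16282716) with -0.69 ± 0.15 and a Cdh20 peak (chr1:104815336-104815562) with 0.52 ± 0.13. The Fat3 peak, in the body of a giant cadherin that shapes neurites, had medians of 1.26 and 0.931 CPM in handled mice and 1.01 and 0.781 after chronic restraint. It was below the median of the 16 pooled controls in 14 of 14 restrained libraries. The Cdh20 peak, in a type II cadherin, was above that median in 14 of 14, with medians of 0.598 and 0.840 CPM in handled mice and 0.629 and 0.780 after chronic restraint. Below, the control median is always that of the 16 pooled mice at 0 min.

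Along Pcdh15 the change was negative at 30 of 35 peaks, with a median of -0.13. The median of all tested peaks was -0.0025, and 51.02% of them were negative. The negative peaks were spread over the gene: beside the calls at 219.7 and 1307 kb, the peaks of the gene with the next smallest p lay 1.88 kb (-0.23 ± 0.07), 990.6 kb (-0.24 ± 0.09) and 248.2 kb (-0.34 ± 0.13) into the body. At the unadjusted threshold of 0.05, 8 peaks were lower and none higher, where 4.06% of all peaks were lower and 3.11% higher. As Pcdh15 was selected on this change, nothing is read from that count. The most covered Pcdh15 peak, chr10:73098831-73100826 (1996 bp, 3.55 kb from the left end), did not share this direction. It had medians of 7.002 CPM at 0 min and 7.40 at 45 min in handled mice, and 6.18 and 6.94 after chronic restraint, a change of 0.070 ± 0.057. Its neighbour 1.88 kb into the body, chr10:73097767-73098537, had medians of 3.47 and 3.09 CPM in handled mice and 3.59 and 2.84 after chronic restraint. At this neighbour all 7 chronically restrained mice at 45 min (2.71 to 3.03 CPM) were below the 8 at 0 min (3.05 to 4.07), whereas in handled mice the groups overlapped, with 1 of 7 below the lowest control.

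Along Cdh12 the picture was more mixed, with 16 of 24 peaks negative and a median of -0.076. At the unadjusted threshold 5 peaks were lower and 1 was higher, beside 4.06% and 3.11% of all peaks. Cdh12 too was selected on this change, so nothing is read from that count. The higher one, chr15:21092935-21093129, 644.2 kb into the body, had medians of 0.433 and 0.635 CPM in handled mice and 0.385 and 0.549 after chronic restraint, with overlapping groups and a change of 0.39 ± 0.15. The most covered Cdh12 peak, chr15:20448764-20449771, covered the left end of the body and had medians of 5.02 and 4.39 CPM in handled mice and 5.02 and 4.10 after chronic restraint. Its change was -0.14 ± 0.07, and 13 of 14 restrained libraries were below the control median. At the RefSeq promoters printed above, the change was -0.18 ± 0.09 for Pcdh15, -0.074 ± 0.088 for Cdh12 and -0.12 ± 0.06 for Cdh10, none of them called.

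**Figure D3:**
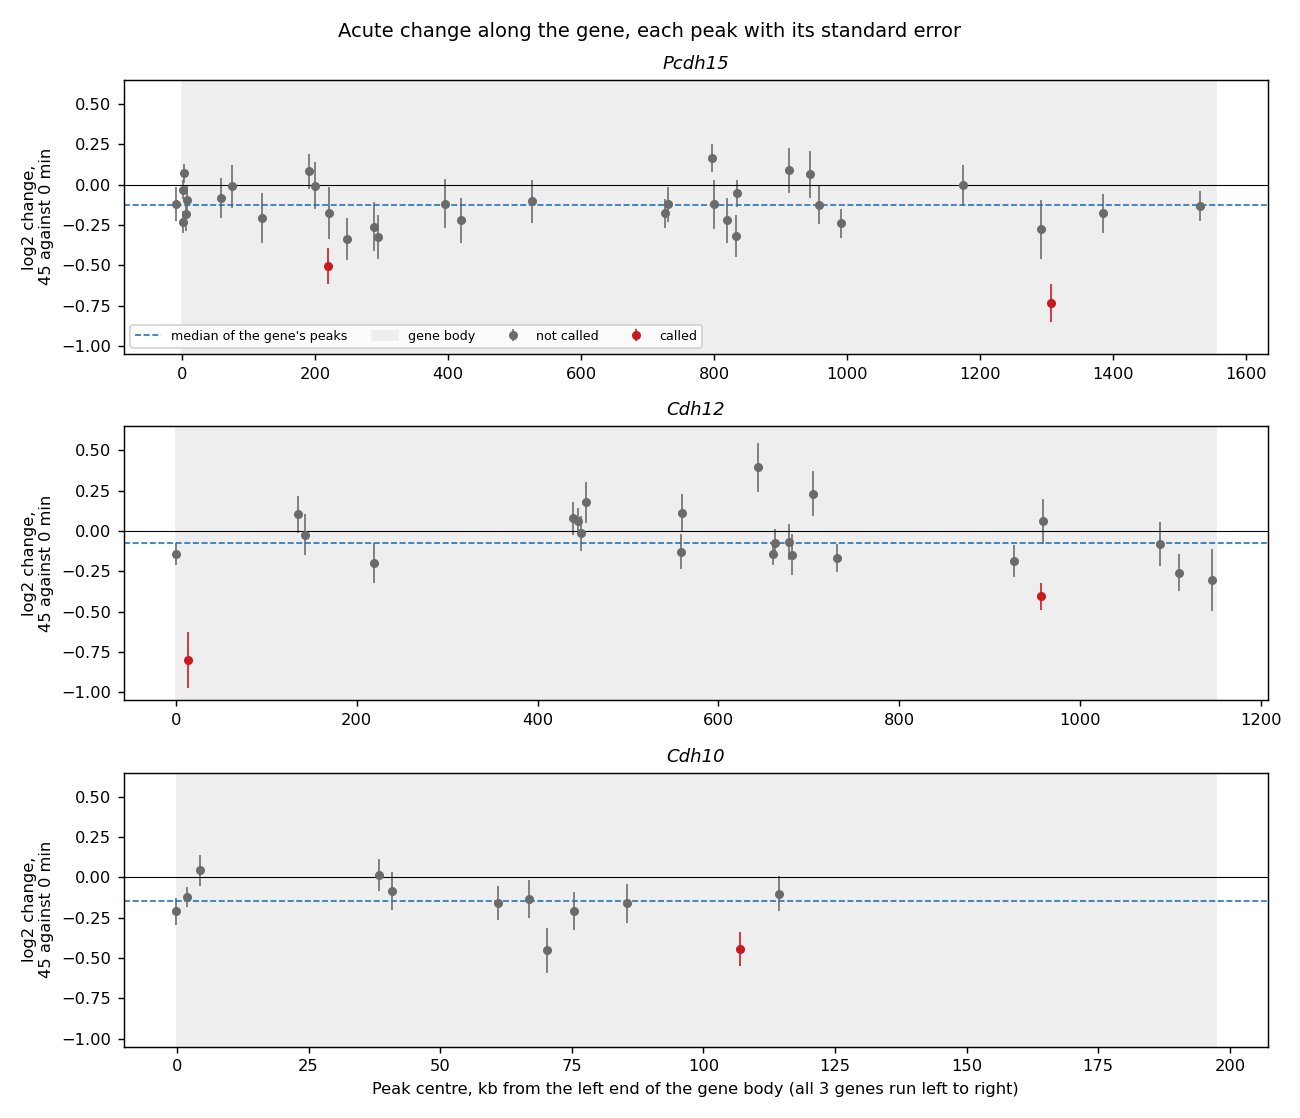
Log2 change at 45 min against 0 min with its standard error (y axis) for each peak of Pcdh15, Cdh12 and Cdh10, by distance of the peak centre from the left end of the gene body (x axis, kb; grey, gene body). The called peaks (red) lie inside the bodies, at 219.7 and 1307 kb in Pcdh15, 13.45 and 956.8 kb in Cdh12 and 106.9 kb in Cdh10, and 30 of 35 Pcdh15 peaks are below 0.

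The median of Pcdh15 was -0.055 in handled and -0.22 in chronically restrained mice. Histories and batches are parts of the averaged comparison that Pcdh15 and Cdh12 were selected on, so neither is a repeat of it. Of the 35 Pcdh15 peaks 23 were negative in both histories, as were 74013 of all 257143 tested peaks, and nothing is read from that count. For Cdh12 the medians were -0.078 and -0.016. The size varied between batches. Pcdh15 had medians of -0.034, -0.20, -0.017 and -0.35 in batches 1 to 4, and Cdh12 -0.092, -0.12, -0.0082 and -0.057. The other 775 member peaks had -0.014, -0.012, -0.0055 and -0.033. In females alone the Cdh12 median was 0.021 and in males alone -0.11, whereas Pcdh15 stood at -0.11 in females and -0.13 in males. The test of the difference between sexes called no member peak (edgeR, 32 of 834 at an unadjusted p under 0.05; 0.000389% of all peaks were called). On the sums this difference, female minus male, was 0.12 ± 0.06 for Cdh12 and 0.0049 ± 0.056 for Pcdh15 (edgeR adjusted p = 0.995 for both).

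Pcdh15 and Cdh12 were not the members with the lowest medians. Cdh10 (-0.15, 10 of 12 peaks negative) and Cdh9 (-0.14, 11 of 14) were lower than Pcdh15, and Fat3 (-0.12, 29 of 35), Cdh20 (-0.11, 12 of 19), Pcdh9 (-0.093, 42 of 50), Cdh11 (-0.085, 40 of 54) and Cdh8 (-0.082, 10 of 14) were lower than Cdh12. Among 8624 genes with at least 10 peaks, ordered from the lowest median, Cdh10 took place 9, Cdh9 place 13, Pcdh15 place 19, Fat3 place 25 and Cdh12 place 183. At the other end, Dchs1 took place 8532, with 14 of 15 peaks positive and a median of 0.089. The 775 peaks of the other members had a median of -0.013, 54.97% were negative and 1 was called. Of all tested peaks 51.02% were negative and 0.116% were called.

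By role, the type II cadherins and the non-clustered protocadherins held all 5 calls. All but the Cdh10 call were in Pcdh15 and Cdh12, which were selected on this change. Of all peaks 0.116% were called, and nothing is read from the placing of these calls by role. The 11 type II genes with peaks (244 peaks) had a median of -0.026, 57.38% negative and 3 called lower. They split by gene: beside the negative medians above, Cdh18 had -0.068 and Cdh6 -0.070, the vascular endothelial Cdh5 had 0.0001, and Cdh22 had 0.042 with 50 of 66 peaks positive. The 10 non-clustered protocadherins (133 peaks) had a median of -0.077 and the largest negative share of the 5 role groups, 81.20%, with 2 called lower. Beside Pcdh15 and Pcdh9, the negative members included Pcdh7 (-0.073, 10 of 11 peaks) and Pcdh1 (-0.037, 6 of 6), while Pcdh8, known as an activity-regulated synaptic protein, had 0.0026 over 2 peaks.

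The other 3 role groups had no called peak in this comparison (0 in edgeR and 0 in DESeq2, with 0.116% of all peaks called). At an unadjusted p under 0.05 edgeR gave 6 higher and 7 lower, 6 and 4, and 10 and 11. These were 8.28%, 5.99% and 15.79% of their peaks, against 7.17% of all peaks. The type I cadherins (157 peaks) had a median of 0.021 and 43.95% negative. Among them N-cadherin (Cdh2) had -0.024 with 38 of 64 negative, R-cadherin (Cdh4) 0.052 with 51 of 78 positive, and M-cadherin (Cdh15) 0.047 with 9 of 11 positive. The group of Cdh13, Cdh16, Cdh17 and Cdh23 (167 peaks) had a median of 0.0077. In it the membrane-anchored Cdh13 had as many negative as positive peaks (62 each), and Cdh23, the tip link partner of Pcdh15, had 0.031 with 19 of 31 positive. The flamingo, Fat and Dachsous genes (133 peaks) had a median of -0.013, with Fat3 at the low end, Celsr3 at 0.047 (8 of 11 positive) and Dchs1, whose protein is the ligand of Fat4, at 0.089.

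Summed over all peaks of a gene, Pcdh15, Cdh10 and Cdh11 fell on the called side of the same threshold, all lower at 45 min, which for Pcdh15 repeats the comparison it was selected on. Of 17633 genes tested this way 1.17% were called, 0.72% higher and 0.454% lower. The median change of the 38 members was -0.029, against -0.0004 over all genes, and 25 of 38 were negative. Pcdh15 had 3.08, 3.48 and 4.83 CPM per kb in handled mice at 0 min and 3.20, 3.36 and 3.85 at 45 min, and 3.18, 3.51 and 3.89 against 2.88, 3.06 and 3.29 after chronic restraint. The groups overlapped in both histories, and 11 of 14 restrained libraries were below the control median. The change was -0.11 ± 0.03, at -0.049 ± 0.039 in handled and -0.17 ± 0.04 in chronically restrained mice, and -0.062, -0.18, -0.0009 and -0.23 by batch. Its call was lost without batch 1, 2 or 4 and in each sex alone.

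Cdh10 had means of 3.63 ± 0.27 and 3.26 ± 0.13 CPM per kb in handled mice (SD, n = 8 and 7) and 3.42 ± 0.40 and 3.03 ± 0.36 after chronic restraint. Its change was -0.15 ± 0.04 and 13 of 14 restrained libraries were below the control median. Cdh11, a type II cadherin first described in bone, had 3.33 ± 0.21 and 3.14 ± 0.13 in handled and 3.26 ± 0.10 and 3.11 ± 0.07 in chronically restrained mice, a change of -0.069 ± 0.016, with 13 of 14 below the control median. Cdh12, at 3.20 ± 0.47 and 2.92 ± 0.16 in handled and 3.16 ± 0.29 and 2.95 ± 0.22 in chronically restrained mice, had -0.094 ± 0.032 and was not called, though in males alone it was. Cdh9, which acts at mossy fibre synapses, had -0.16 ± 0.04, the lowest value among the 38, and was not called. Without animal 45 the called members were Cdh9, Cdh10, Cdh11, Pcdh9 and Pcdh15, and leaving out batch 1 or batch 2, or taking females alone, gave 0. Males alone gave Cdh10, Cdh12 and Fat3, and leaving out batch 4 gave Cdh10, Cdh11 and Pcdh9.

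**Figure D4:**
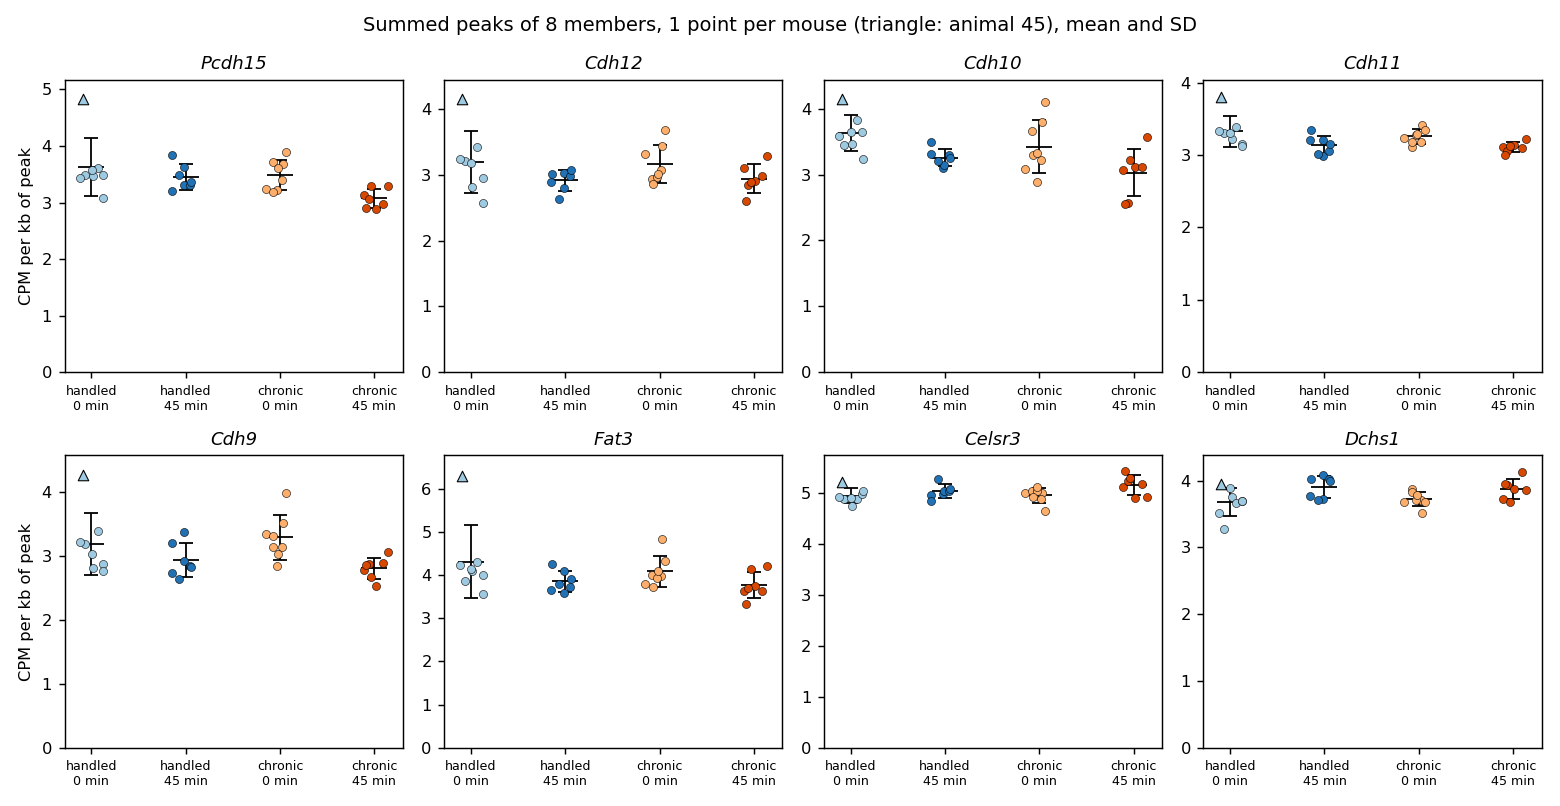
CPM per kb of peak summed over each of 8 members (y axis, from 0) in each mouse, by group (x axis), with mean and SD; the triangle is animal 45. Animal 45 is the highest handled mouse at 0 min in all 8 panels. The 45 min points of Cdh10 and Cdh11 are lower on average than those at 0 min and those of Dchs1 higher, with overlap in both histories.

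The direction was the same in both histories for 31 of the 38 sums, 20 lower and 11 higher, although the fit shares sex, batch and spread between histories. No share of all genes is given beside these counts or those by batch. Histories and batches are parts of the averaged comparison that Pcdh15 and Cdh12 were selected on, so neither is a repeat of it. Those lower in both included Pcdh15, Cdh12, Cdh8 to Cdh11, Cdh18, Cdh20, Pcdh7, Pcdh9 and all 4 Fat genes. Those higher in both included Cdh4, Cdh15, Cdh22, Cdh23, Celsr3 and Dchs1. Within batches, 12 members were lower in all 4 (Cdh9, Cdh10, Cdh11, Cdh12, Cdh18, Cdh20, Pcdh9, Pcdh10, Pcdh15, Fat1, Fat2 and Fat3) and 4 were higher in all 4 (Cdh22, Cdh23, Celsr3 and Dchs1). Dchs1 had 3.68 ± 0.21 and 3.91 ± 0.16 CPM per kb in handled and 3.73 ± 0.11 and 3.88 ± 0.15 in chronically restrained mice, with 13 of 14 restrained libraries above the control median. Its change of 0.074 ± 0.021 was not called.

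**Figure D5:**
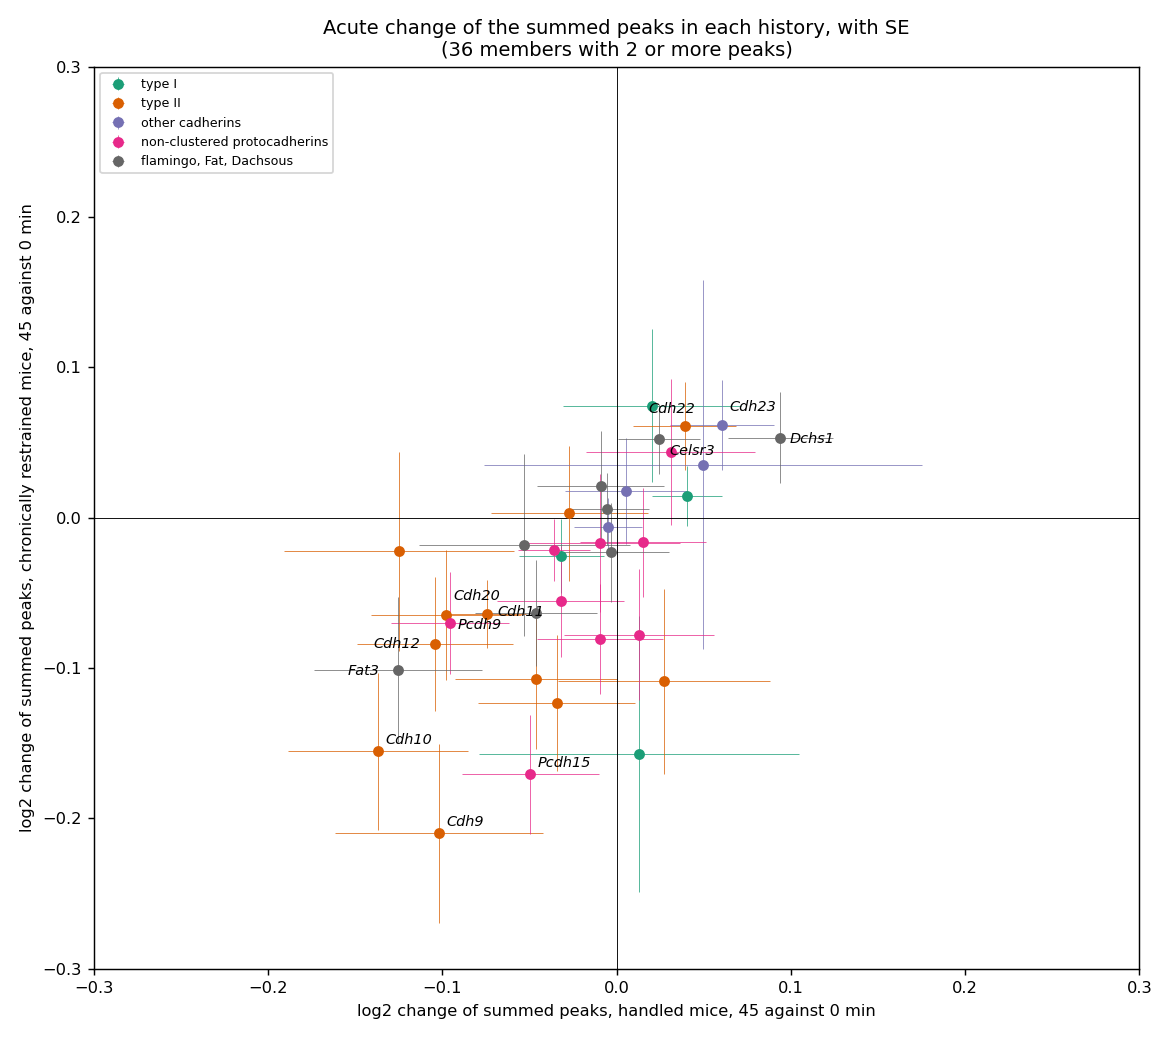
Log2 change of the summed peaks at 45 min against 0 min in handled mice (x axis) and in chronically restrained mice (y axis), with standard errors, for the 36 members with 2 or more peaks, coloured by role group. Type II genes such as Cdh9 and Cdh10 and the protocadherins Pcdh15 and Pcdh9 lie at the lower left, and Dchs1, Cdh22, Cdh23 and Celsr3 at the upper right.

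The acute values of the members differed with gene length, and over all members with coverage. Members with bodies over 500 kb (286 peaks, Pcdh15 and Cdh12 among them) had a median of -0.054, those of 100 to 500 kb -0.0082 and shorter ones 0.0090. All peaks in genes of the same lengths had -0.022, -0.0022 and 0.0082. By coverage, all peaks were divided into 4 equal bins, of which the least covered had a median of -0.015 and the most covered 0.0024. Member peaks in these bins had -0.046, -0.022, -0.0075 and 0.000016 from the least to the most covered. Pcdh15 and Cdh12 together showed no such order, with -0.12, -0.13, -0.12 and -0.14 (26, 17, 9 and 7 peaks). Animal 45, a handled female at 0 min, had 42.15% of its counts in gene-end peaks, against 37.68% to 40.25% in the other libraries, and 4.83 CPM per kb at Pcdh15 against 3.08 to 3.61 in the rest of its group. Without it the median of Pcdh15 was -0.098 and 7 member peaks were called, the same 5 among them. When the fraction taken by the 1% best covered peaks entered the model as a covariate, 12 were called (2 higher and 10 lower), again with the same 5. The part of gene length in the result was not tested.

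Within each history taken alone, no member peak was called. In handled mice 66 of 834 had an unadjusted p under 0.05 in edgeR, DESeq2 called 0, and 0.0109% of all peaks were called, 0.00972% higher and 0.00117% lower. In chronically restrained mice the figures were 61, 0 and 0.00272%. The shares at the unadjusted threshold were 7.91% and 7.31% of the members. No share of all peaks at that threshold is given for a single history. Of the 38 sums edgeR called 0 in handled mice and 0 in chronically restrained mice. Of all genes it called 0.142% in handled mice (0.119% higher and 0.0227% lower) and 0.051% in chronically restrained mice, all higher. At an unadjusted p under 0.05 there were 8 and 12 of the 38 sums, and no share of all genes is given at that threshold. Without animal 45, 1 member peak was called in chronically restrained mice.

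For a history of chronic restraint, no member peak was called. The rule that set Pcdh15 and Cdh12 apart did not use this contrast, although it is drawn from the same libraries as the acute one. At an unadjusted p under 0.05 edgeR gave 58 of 834 (6.95%, against 5.44% of all peaks), DESeq2 called 0, and 0% of all peaks were called. The smallest adjusted p of edgeR among the members was 0.824, at a Fat3 peak (chr9:16029043-16029413) with a change of -0.31 ± 0.09. That peak had medians of 2.59 CPM in handled and 2.21 in chronically restrained mice at 0 min, and 2.40 and 1.80 at 45 min, with overlapping ranges. A Pcdh9 peak (chr14:93719215-93719522, -0.42 ± 0.13, adjusted p = 0.857 in edgeR) and a Cdh20 peak (chr1:105002233-105002598, -0.34 ± 0.11, adjusted p = 0.872) followed. At 0 min alone 47 and at 45 min alone 40 of the 834 member peaks had an unadjusted p under 0.05 in edgeR. The share of all peaks at that threshold is not given for each time alone. By either tool 0 member peaks were called, and 0% of all peaks were called.

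Pcdh15 had the smallest adjusted p of the member sums for chronic restraint, and it missed the threshold. Its change was -0.090 ± 0.028 (edgeR adjusted p = 0.285), at -0.029 ± 0.038 at 0 min (adjusted p = 0.909) and -0.15 ± 0.04 at 45 min (adjusted p = 0.936). The chronically restrained mice at 45 min also enter the acute change that Pcdh15 was selected on, which was -0.17 ± 0.04 in that history. Of the 35 Pcdh15 peaks 28 were negative for chronic restraint, with a median of -0.13. Of all 257143 tested peaks 133813 were negative, with a median of -0.0049. Cdh12 had 0.016 ± 0.031 (edgeR adjusted p = 0.871), with a peak median of 0.014. None of the 38 sums was called by edgeR, with 0 by DESeq2 and 0% of all genes called. At an unadjusted p under 0.05 edgeR gave 7, with no share of all genes given at that threshold.

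No member peak was called in the interaction test, which asks whether the acute change differed between histories (28 of 834, or 3.36%, at an unadjusted p under 0.05 in edgeR against 3.03% of all peaks; DESeq2 called 0 and 0% of all peaks were called). The members with the smallest p were peaks in Cdh4 (chr2:179892866-179893185, -0.77 ± 0.26), Cdh13 (chr8:119122124-119122698, 0.63 ± 0.21) and Cdh22 (chr2:165113780-165114058, 0.70 ± 0.26), all with an adjusted p of 1 in edgeR. At the Cdh4 peak the medians were 0.698 and 1.09 CPM at 0 and 45 min in handled mice and 0.727 and 0.689 after chronic restraint. On the sums, the interaction of Pcdh15 was -0.12 ± 0.06 (edgeR adjusted p = 1) and that of Cdh12 was 0.020 ± 0.063 (adjusted p = 1). Among the sums 1, that of Pcdh15, had an unadjusted p under 0.05 in edgeR, with no share of all genes given at that threshold. DESeq2 called 0, and 0% of all genes were called.

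Between females and males no member peak was called (edgeR, 53 of 834, or 6.35%, at an unadjusted p under 0.05 against 5.37% of all peaks; DESeq2 called 0, and 0.035% of all peaks were called, 0.0327% higher in females and 0.00233% lower). The smallest adjusted p was 0.164, at a Cdh18 peak (chr15:23470673-23471020) with 1.18 ± 0.36 CPM in females and 0.836 ± 0.13 in males (SD, n = 15 each) and a change of 0.50 ± 0.12 by edgeR. The Cdh4 peak at its gene end (chr2:179441608-179444329) had 13.2 ± 1.4 CPM in females and 11.7 ± 1.0 in males, a change of 0.17 ± 0.05 (edgeR adjusted p = 0.492). Of the sums none was called (smallest edgeR adjusted p = 0.619, 0 by DESeq2). Of all genes 0.454% were called, 0.42% higher in females and 0.034% lower. At an unadjusted p under 0.05 edgeR gave 2 sums, with no share of all genes given at that threshold.

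The level of the members per kilobase of peak, over both sexes, ordered them differently from the response. In handled mice at 0 min Pcdh17 was highest with 6.10 ± 0.80 CPM per kb (SD, n = 8), followed by Celsr2 at 5.56 ± 0.14, Pcdh1 at 5.45 ± 0.31, Pcdh7 at 5.24 ± 0.79, Pcdh10 at 5.19 ± 0.68, Pcdh8 at 5.11 ± 0.60 and Celsr3 at 4.95 ± 0.14. These neighbours differed by less than the larger of their SDs. Pcdh15 (3.62 ± 0.51) and Cdh12 (3.20 ± 0.47) lay between these and the lowest, and Cdh17, the liver and intestine cadherin, was lowest with 2.38 ± 0.31 over 2 peaks. The Celsr2 value came largely from a single region of 39579 bp that also overlapped Psrc1 and Mybphl. Peak numbers ran from 1 (Cdh1, Pcdh18) to 124 (Cdh13).

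The 57 member peaks within 1 kb of a gene end had a median acute change of -0.011, and 64.91% were negative. None of them was called (0 in edgeR and 0 in DESeq2), where 0.116% of all peaks were called. At an unadjusted p under 0.05, 3 were higher and 3 lower (10.53%, against 7.17% of all peaks). The other 777 had a median of -0.019 and held the 5 calls, all but that of Cdh10 in Pcdh15 and Cdh12. At the unadjusted threshold 25 of the 777 were higher and 63 lower (11.33%). With 57 peaks and so small a share called, nothing is read from the lack of calls at gene ends. Cdh2 stood at a median of 31.9 CPM at 0 min and 32.2 at 45 min in handled mice, and 32.4 and 30.8 after chronic restraint, an averaged change of -0.020 ± 0.046. Cdh11, whose sum was on the called side, had 19.7 and 19.7 CPM in handled and 20.3 and 19.4 in chronically restrained mice (-0.0036 ± 0.046). Cdh9 had 2.27 and 2.21 CPM in handled mice and 2.50 and 2.03 after chronic restraint. Its change was -0.11 ± 0.13 and -0.34 ± 0.13 in turn, -0.23 ± 0.09 averaged, and 4 of 7 handled and 7 of 7 chronically restrained mice were below the median of their own controls. Fat3 had 21.8 and 21.7 CPM in handled and 23.67 and 22.02 in chronically restrained mice (-0.099 ± 0.058 averaged), with 4 of 7 and 7 of 7 below the median of their own controls. Cdh23 had 26.5 and 28.3 CPM, and 27.4 and 28.9 (0.075 ± 0.038 averaged). Whether gene-end and inner peaks differed was not tested.

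Among genes that work with cadherins, no list had a called peak in the averaged acute comparison except that of other adhesion genes, which had 1. Of all peaks 0.116% were called, and at an unadjusted p under 0.05 3.11% were higher and 4.06% lower. The catenins and their partners (12 genes, 645 peaks) had a median of -0.011, with 14 peaks higher and 36 lower at an unadjusted p under 0.05. The tip link partners of Pcdh15 and Cdh23 (10 genes such as Tmc1 and Ush1c, 130 peaks) had 0.012, with 8 higher and 2 lower. The planar polarity genes (272 peaks) had -0.012, with 5 higher and 9 lower, and the proteases that shed cadherins, such as Adam10 (112 peaks), 0.024, with 6 higher and 1 lower. The 24 other adhesion genes, neurexins and contactins among them (1499 peaks), had -0.025, with 36 higher and 105 lower, and the call was a Cntnap2 peak with -0.55 ± 0.13. The counts at the unadjusted threshold were 7.75%, 7.69%, 5.15%, 6.25% and 9.41% of each list's peaks in turn, against 7.17% of all peaks.

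Markers of neurons and glia were checked by the accessibility of their gene ends, and not all had a peak there. Medians of level are over all markers of a list, with 0 entered for a marker without such a peak. Gene-end peaks were found at 7 of 8 excitatory neuron markers (median 4.31 CPM per kb), 6 of 8 of inhibitory neurons (2.77), 8 of 8 of oligodendrocytes (3.37), 5 of 5 of their precursors (3.97) and 6 of 6 of microglia (3.26). They were found at 5 of 8 astrocyte markers (2.99; Aqp4, Gja1 and Slc4a4 had none), 3 of 6 of endothelial and mural cells (1.15) and 1 of 5 of choroid plexus (median 0). The median acute change of the 8 marker lists lay between -0.021 and 0.020. In the oligodendrocyte list 15 peaks were higher and 7 lower of 108 at an unadjusted p under 0.05 (20.37%, against 7.17% of all peaks). In the remaining lists that share ran from 2.08% (endothelial and mural cells) to 8% (choroid plexus). Over the peaks of all 8 lists 3 were called, in Adarb2 (0.33 ± 0.07), Mobp (0.24 ± 0.05) and Slc4a4 (-0.62 ± 0.13). Of all tested peaks 0.116% were called. The part of cell composition in the cadherin values was not tested.

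The genes whose sums varied most like those of Pcdh15 over the 30 libraries, after batch and sex were taken out, were Rnf144b (Pearson r = 0.910), Hibadh (0.900), Cntn5 (0.885), Btg1 (0.880) and Cntn4 (0.879), where the median over 17632 genes was 0.428. For Cdh12 they were Tceal8 (0.880), Chst9 (0.872), Klhl25 (0.863), Robo2 (0.841) and Fhit (0.839), with a median of 0.332. The r between Pcdh15 and Cdh12 was 0.569. These values describe libraries that share depth and the 4 groups. The 30 libraries included animal 45, the highest of its group at both genes (4.83 CPM per kb at Pcdh15 and 4.16 at Cdh12). Its part in these r values was not tested.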

How the data were processed

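The deposited table gave raw counts per peak, one set of regions for all libraries, as whole numbers. Per the submitters' processing notes the authors used Trimmomatic, Bowtie2, Picard and Genrich 0.6.1 on GRCm38. How the regions were combined, and whether reads, fragments or insertions were counted, is not given in the sources used here. Of the table's columns 2 matched no sample and were not used.

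Members, gene lists and the rule for named peaks were chosen with earlier results of these data known. Peaks were assigned with GenomicRanges 1.54.1 and counts were fitted in edgeR 4.0.16 (R 4.3.3) over all peaks: filterByExpr removed 6 of 257149, none of a member, followed by TMM scaling and a robust quasi-likelihood fit of the 4 groups with sex and batch. F-tests were adjusted by Benjamini-Hochberg over all 257143 peaks, and called at 0.05. A separate fit with 1 term for each combination of group and sex, plus batch, tested whether the acute change differed by sex. Counts summed per RefSeq protein coding gene (body and 10 kb) were tested the same way over 17633 genes. P-values measure the spread between mice. The scripts were tested on simulated data.

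Peaks named were every called member peak, for Pcdh15 and Cdh12 the 5 with the smallest p and the most covered, for other members the most covered peak within 1 kb of a gene end (those that matter are printed), and the 3 with the smallest p for chronic, interaction and sex comparisons. The Fat3 and Cdh20 peaks just outside the threshold, and single peaks of partner and marker genes, were chosen after their values were seen. Likeness used log2 CPM with a prior count of 2. Alternatives were total count scaling, DESeq2 1.42.0, no filter, other covariates, leaving out animal 45, each batch or each sex, the gene body alone and, chosen after seeing the data, batch combined with sex as a block. The table of RefSeq genes gives no strand or exons, so exons and introns were not assigned. Peak sequences were not used here.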

Additional observations from a re-analysis of the deposited data

Results flagged for a closer look

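Of 172 groups of values checked, 24 had 1 library whose gap to its nearest neighbour, relative to the range of the group, was above Dixon's critical value. Chance flags about 1 in 20 independent groups by this criterion, but these groups share libraries, and most of the flags came from a single one. Animal 45, a handled female at 0 min, was the high library at each gene in this paragraph, in CPM per kb of summed peaks. Among cadherins it had 5.08 at Cdh3 (others 2.54 to 3.42), 5.39 at Cdh6, 6.77 at Cdh7, 6.16 at Cdh8, 4.27 at Cdh9, 3.81 at Cdh11, 5.38 at Cdh18 and 3.65 at Cdh13 (others 2.91 to 3.02). Among protocadherins it had 7.06 at Pcdh7, 6.44 at Pcdh8, 5.68 at Pcdh9, 6.77 at Pcdh10, 4.83 at Pcdh15 and 8.02 at Pcdh17 (others 5.44 to 6.03). Among Fat genes it had 5.03 at Fat2, 6.30 at Fat3 (others 3.57 to 4.30) and 3.77 at Fat4.

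The remaining libraries stood apart at single genes. In handled mice at 45 min, animal 27 was low at Cdh3 with 2.62 CPM per kb (others 3.03 to 3.28), animal 71 high at Cdh15 with 3.32 (others 2.95 to 3.09) and animal 59 high at Cdh22 with 3.27 (others 2.94 to 3.03). In chronically restrained mice at 45 min, animal 36 was low at Cdh1 with 2.34 (others 3.79 to 4.61) and animal 5 high at Cdh6 with 3.90 (others 3.06 to 3.42). At the called peaks in the same group, animal 56 was low at the Pcdh15 peak 219.7 kb into the body with 0.376 CPM (others 0.884 to 1.08), and animal 5 was high at the Cdh12 peak 956.8 kb into the body with 2.86 CPM (others 1.73 to 2.11).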

How the results depend on the processing

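For the averaged acute change, the 5 called member peaks became 12 when the fraction taken by the 1% best covered peaks was a covariate, 2 without batch 1, 0 without batch 2, 2 without batch 3, 1 without batch 4, 0 in females alone and 3 in males alone. In handled mice alone 0 became 4 with that covariate, and in chronically restrained mice 0 became 1 with it and 1 without animal 45. The 3 called gene sums became 9 with the covariate, 5 without animal 45, 0 without batch 1, 0 without batch 2, 1 without batch 3, 0 in females alone and 7 in DESeq2, where the added members were Cdh9, Pcdh9, Fat3 and Dchs1. The number stayed at 3 with other genes without batch 4 (Cdh10, Cdh11 and Pcdh9) and in males alone (Cdh10, Cdh12 and Fat3). Fewer libraries were tested wherever a batch or sex was left out, and the cause of each loss was not tested. One value reversed: the Cdh12 median was 0.021 in females alone. The Pcdh15 median stayed negative in every setting, from -0.20 without batch 3 to -0.098 without animal 45. The counts for chronic restraint, the interaction and sex stayed at 0 in every setting run; the sex comparison could not be fitted in 1 sex or without sex in the model, and was not made with the block below. Over the settings the 5 called peaks kept their call 46 times and lost it 24 times, always with a negative change. By replicate number, no paired analysis was possible because these are animal numbers, each belonging to 1 library and shared by no groups. The groups are matched by batch and sex, and a fit with batch combined with sex as a block, chosen after seeing the data, called 6 member peaks (the same 5 and 1 in Fat3) and the same 3 gene sums. Low coverage limits the short Cdh12 peak most, with a mean of 15.5 counts.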

Other observations

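Members best known from vessels and epithelia also had open regions in these libraries. Cdh5 of endothelial cells had 12 peaks, 6 with a negative and 6 with a positive acute change, and Pcdh12, also of endothelium, had 8 negative and 6 positive of 14. The epithelial Cdh1 had a single peak of 236 bp, with 4.22 ± 0.79 CPM per kb in handled mice at 0 min (SD, n = 8) and 4.41 ± 1.3 at 45 min (n = 7), and Cdh3 had 3 peaks. Cdh16, a cadherin of the kidney, had 10 peaks over a gene of 22.5 kb, 7 of them positive.

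Members with bodies over 500 kb had from 18 (Cdh18) to 124 peaks (Cdh13), and those up to 100 kb from 0 (Cdh19) to 15 (Dchs1). Between single genes the longer one did not always have more peaks. Pcdh15 had 35 peaks over 1554 kb and Cdh12 had 24 over 1150 kb, whereas Cdh13 had 124 over 1185 kb and Cdh22 had 66 over 123.4 kb.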
